A study of Mus musculus with 9 samples.

Results

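Ribosome footprints of 10 genes that control NF-κB activation were measured by RiboSeq in TTP-deficient macrophages under 3 conditions, named GFP, GFP-TTP and GFP-TTP-AA after the protein they expressed. The genes were taken by symbol from the 16921 gene identifiers of the series, with 1 entry each, and all 10 passed the filter on low values, as did 10202 genes in total. They encode 5 proteins of the IκB family (Nfkbia, Nfkbib, Nfkbid, Nfkbie and Nfkbiz) and 5 proteins of the IκB kinases and their relatives (Chuk, Ikbkb, Ikbkg, Ikbke and Tbk1). All 9 libraries came from bone marrow-derived macrophages (BMDMs) of TTP-deficient mice that had been immortalized with oncogenes, transduced with a doxycycline-inducible retroviral vector and sorted for GFP. Each condition had 3 libraries and was a separately transduced cell population. GFP is the empty control, GFP-TTP carries the wild-type coding sequence of the RNA-binding protein tristetraprolin, and in GFP-TTP-AA the serines that the kinase MK2 phosphorylates are replaced by alanine. Every library was taken after 6 h of doxycycline (1 µg/ml) and 1 h of LPS (1 µg/ml), so that no library shows the cells before LPS.

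NF-κB dimers are held in the cytoplasm by the classical inhibitors IκBα (Nfkbia), IκBβ (Nfkbib) and IκBε (Nfkbie). After LPS the IKK complex phosphorylates them, which leads to their ubiquitination and degradation, and NF-κB then drives transcription of Nfkbia, the best known negative feedback of the pathway. The atypical members IκBNS (Nfkbid) and IκBζ (Nfkbiz) act in the nucleus, where IκBζ is needed for a set of secondary response genes. TTP binds AU-rich elements in 3′UTRs, promotes mRNA decay and represses translation, and MK2 phosphorylation restrains it. A footprint count joins the amount of an mRNA with its translation, and fewer expressing cells and less RNA per cell cannot be told apart in such bulk libraries.

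As TTP is a protein that binds AU-rich elements, the 3′UTR of each gene was searched on the transcript strand for ATTTA, for TATTTAT, which contains it, and for TTATTTATT, which contains both. The sequences were those of the GENCODE vM21 transcript with the longest coding sequence, on GRCm38. Of the 3′UTRs of 9935 genes that passed the filter, 66.7% held ATTTA, 27.8% held TATTTAT and 7.2% held TTATTTATT. Among the 10 genes, TATTTAT was found in Nfkbia (2 copies in 512 nt) and in Ikbkg (3 overlapping copies in 5419 nt). Of the 3′UTRs within 20% of the length of that of Nfkbia 14.7% held it, and of those within 20% of the length of that of Ikbkg 64.6%. TTATTTATT was found once in Nfkbia and 3 times in Ikbkg, and in 3.1% and 19.5% of the 3′UTRs of like length. Of ATTTA, Ikbkg had 14 copies and Nfkbia 2. Nfkbiz had 4 copies of ATTTA in 1355 nt and no TATTTAT, Chuk had 7 copies in 1176 nt, and Nfkbid and Ikbkb had 1 each. Among 3′UTRs of like length, ATTTA was held by 100.0% for Ikbkg, 82.2% for Nfkbiz, 79.7% for Ikbkb and 79.6% for Chuk. The share was 54.3% for Nfkbid and 51.3% for Nfkbia. In Nfkbib, Nfkbie, Ikbke and Tbk1 neither ATTTA nor TATTTAT was found. The windows of 30 nt around the sites of Nfkbia, Ikbkg and Nfkbiz are printed because these carry the longer motif or, for Nfkbiz, because it was the most translated gene of the set next to Nfkbia. Each window is given 5′ to 3′ on the transcript strand, with the motif in capitals.
Nfkbia, chr12:55489607-55489636, minus strand, 297 nt after the stop codon: ggaccacgtttTATTTATtgtgcttttgat
Nfkbia, chr12:55489418-55489447, minus strand, 486 nt after the stop codon: tctaagatgtaTATTTATtaaacagatttt
Ikbkg, chrX:74452556-74452585, plus strand, 4204 nt after the stop codon: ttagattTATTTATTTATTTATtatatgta
Nfkbiz, chr16:55812591-55812620, minus strand, 122 nt after the stop codon: tgaaacaaacccATTTAgttcactattata
Nfkbiz, chr16:55811855-55811884, minus strand, 858 nt after the stop codon: atcacctcttagATTTAtgtaatttaccta
Nfkbiz, chr16:55811846-55811875, minus strand, 867 nt after the stop codon: tagatttatgtaATTTAcctaagttgttga
Nfkbiz, chr16:55811627-55811656, minus strand, 1086 nt after the stop codon: tattttgctttgATTTAtacactgattctt
The windows of Nfkbiz at 858 and 867 nt overlap. A match describes the letters and was not tested as a binding site.

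**Figure D1:**
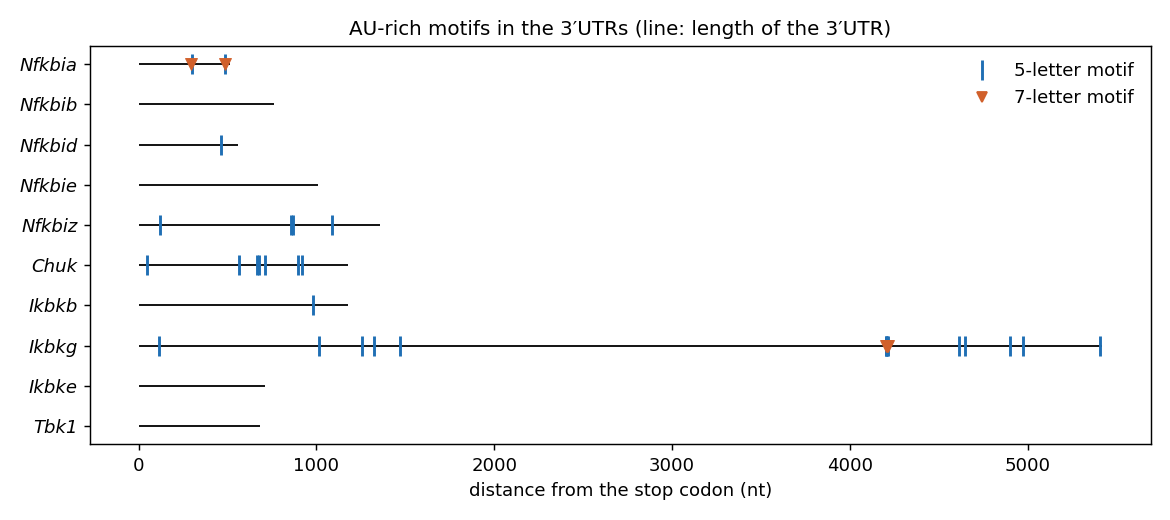
Position of the motif ATTTA (5 letters, blue ticks) and of TATTTAT (7 letters, orange triangles) in the 3′UTR of each of the 10 genes, in nt from the stop codon, with the length of the 3′UTR as a line. Only Nfkbia and Ikbkg among the 10 carried the longer motif, and the 3′UTR of Ikbkg was 5419 nt long.

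The deposited values are those that the authors' statistical model fitted, with a term for the condition and one for the replicate number, so that the spread between replicates is not in them. The 3 libraries of a condition differ in these values only by the replicate term, which is the same in all conditions, and values that point the same way in all 3 replicates are therefore no separate evidence. Summed over all genes, a library held fitted values of 2570292 to 12804501. The level of a gene was its fitted value divided by the size factor of the library, averaged as a geometric mean over the 3 libraries. The error of a log2 fold change is the standard error (SE) of the authors' model for that gene, from 3 replicates per condition, and intervals are 1.96 SE to each side. The deposited model also shrank each log2 fold change towards 0. Zfp36, which encodes TTP and also collects footprints on the constructs, had levels of 459.0, 927.4 and 1534.9 in GFP, GFP-TTP and GFP-TTP-AA. Both conditions with a TTP construct were above GFP, by 1.01 and 1.74 (SE 0.25 each, adjusted p = 0.0048 and 2.24e-09 in the Wald test used throughout), and GFP-TTP-AA was above GFP-TTP by 0.73 (SE 0.25, adjusted p = 0.0394), so that the footprints on Zfp36 and the constructs differed between the 2 forms of TTP as well. GFP, with no TTP construct in TTP-deficient cells, still had 459.0. The macrophage markers Emr1, Itgam, Cd68, Csf1r, Lyz2 and Cd14 were all above the filter, with summed levels of 93576.4, 73910.7 and 106355.7. Their fitted means ran from 3880.98 to 72803.2, so that the sums do not weigh these markers equally. Of 11 markers of other cell types with an entry, S100a8 of neutrophils was above the filter (27.0, 25.6 and 55.8), the others had a fitted mean of at most 3.7, and 8 further markers had no entry. The part of these marker levels in the results below was not tested.

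Footprints on the 10 genes were dominated by 2 IκB proteins. Per kilobase of coding sequence, Nfkbia had levels of 5301.0, 4512.7 and 5357.4 in GFP, GFP-TTP and GFP-TTP-AA, above at least 97.9% of the genes that passed the filter. Nfkbiz followed with 1603.0, 1382.2 and 1951.8 per kilobase. Nfkbia made up 67.2%, 66.2% and 64.1% of the summed level per kilobase of the 5 IκB proteins, and Nfkbiz 20.3%, 20.3% and 23.3%. The other IκB proteins were translated at a fraction of that level: Nfkbib had 448.2, 397.8 and 538.5 per kilobase, Nfkbid 316.5, 322.4 and 264.8, and Nfkbie 214.9, 203.7 and 249.9. Among the kinases, Tbk1, the kinase that phosphorylates IRF3, had the highest level per kilobase with 350.3, 269.9 and 336.8, ahead of Ikbkg, the regulatory subunit NEMO of the IKK complex, with 223.8, 224.0 and 211.1. The catalytic subunits of the IKK complex were close to each other, with 128.1, 112.7 and 116.8 for Chuk (IKKα) and 121.3, 109.8 and 130.7 for Ikbkb (IKKβ). Ikbke (IKKε), a relative of Tbk1, was last in each condition with 66.2, 65.3 and 95.5. The first 3 places (Nfkbia, Nfkbiz, Nfkbib) and the last place were the same in each condition. Between them Tbk1 and Nfkbid exchanged places 4 and 5 in GFP-TTP. With GFP-TTP-AA, Nfkbie was above Ikbkg and Ikbkb above Chuk. No error of a level is in the values used, so that neighbours in this order were not tested. The summed level per kilobase of the 5 IκB proteins was 8.9, 8.7 and 9.4 times that of the kinases and Ikbkg in GFP, GFP-TTP and GFP-TTP-AA.

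**Figure D2:**
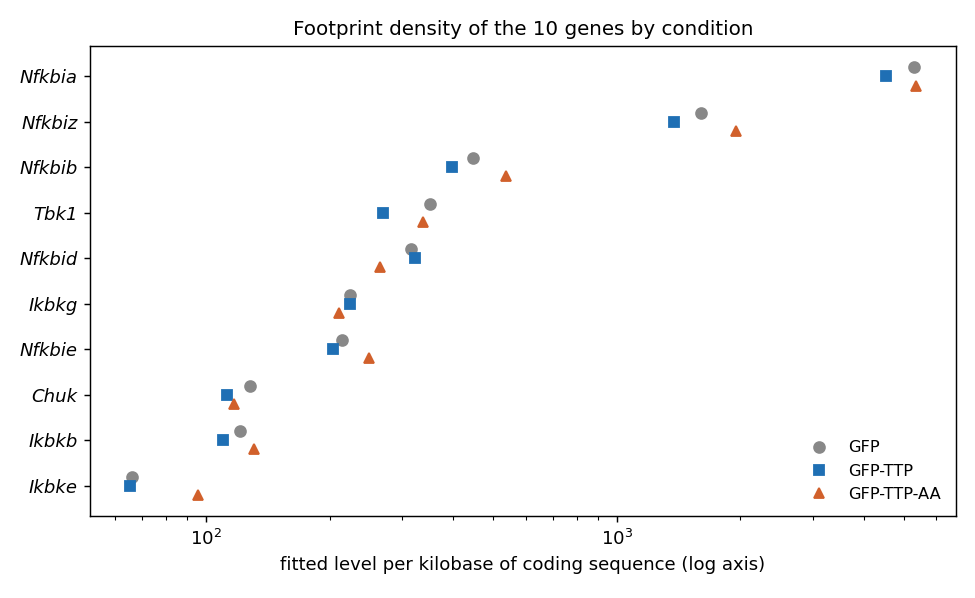
Fitted level per kilobase of coding sequence (log axis) of the 10 genes in GFP (grey circles), GFP-TTP (blue squares) and GFP-TTP-AA (orange triangles), ordered by the level in GFP. Nfkbia and Nfkbiz stand above the other 8 genes, and Ikbke is lowest, at 66.2 in GFP and 95.5 in GFP-TTP-AA.

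The classical inhibitors all had their lowest level in GFP-TTP and their highest in GFP-TTP-AA, by differences that did not pass the test, and relative to the median of its chromosome Nfkbia was highest in GFP. Nfkbia (minus strand of chromosome 12, 55489410 to 55492647) had levels of 5458.1, 5599.2 and 4074.3 in replicates 1, 2 and 3 of GFP, of 4659.5, 4765.6 and 3459.3 in GFP-TTP, and of 5538.4, 5645.0 and 4111.1 in GFP-TTP-AA. Replicate 3 was the lowest of each condition, and the conditions overlapped. The log2 fold change of Nfkbia was -0.23 (SE 0.15, interval -0.54 to 0.07) in GFP-TTP against GFP, 0.02 (SE 0.15, -0.29 to 0.32) in GFP-TTP-AA against GFP and 0.25 (SE 0.15, -0.06 to 0.55) in GFP-TTP-AA against GFP-TTP. Changes of this most translated inhibitor above 1.46-fold up or below 0.69-fold thus lay outside the intervals of all 3 comparisons, on the shrunken scale. Relative to the medians of chromosome 12 the values with GFP-TTP-AA were -0.11 against GFP and 0.14 against GFP-TTP.

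Nfkbib (minus strand of chromosome 7, 28758251 to 28767512) had levels of 358.5, 469.4 and 668.5 in GFP, of 319.0, 416.5 and 591.7 in GFP-TTP, and of 432.5, 562.6 and 801.9 in GFP-TTP-AA. Here replicate 3 was the highest of each condition, and the conditions overlapped. GFP-TTP-AA was above GFP-TTP by 0.44 (SE 0.17, interval 0.11 to 0.76), which is 1.35-fold, with an adjusted p of 0.0718 (Wald test with the SE of the authors' model, Benjamini-Hochberg over all genes tested). Against GFP, the log2 fold change of Nfkbib was -0.17 (SE 0.17) with GFP-TTP and 0.26 (SE 0.17) with GFP-TTP-AA. Nfkbie (plus strand of chromosome 17, 45555703 to 45563169) ranged from 179.6 to 319.4 in GFP, from 170.7 to 302.0 in GFP-TTP and from 209.7 to 370.9 in GFP-TTP-AA. Its value in GFP-TTP-AA relative to GFP-TTP was 0.30 (SE 0.24, interval -0.17 to 0.76), and against GFP it was -0.08 (SE 0.24) with GFP-TTP and 0.22 (SE 0.24) with GFP-TTP-AA.

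The nuclear IκB proteins differed from each other in direction. Nfkbiz (minus strand of chromosome 16, 55811375 to 55838899) had levels of 3011.6, 3496.0 and 4075.7 in GFP, of 2604.1, 3013.9 and 3505.2 in GFP-TTP, and of 3681.6, 4246.3 and 4954.7 in GFP-TTP-AA. Replicates 1 and 2 of every condition were below replicate 3, and all values of GFP-TTP-AA were above all values of GFP-TTP. GFP-TTP-AA was above GFP-TTP by 0.50 (SE 0.25, interval 0.01 to 0.99, 1.41-fold), with an adjusted p of 0.214 in the same test. Against GFP the value was -0.21 (SE 0.25) with GFP-TTP and 0.28 (SE 0.25) with GFP-TTP-AA, and the latter was 0.15 relative to the median of chromosome 16. In GFP-TTP-AA against GFP-TTP the median of chromosome 16 was 0.16 over 326 genes. Relative to it, Nfkbiz stood at 0.34 in that comparison, with an adjusted p of 0.472 (same test). The SE of Nfkbiz was larger than that of 95.2% of the genes tested, although its level per kilobase was above that of at least 91.4% of genes. Solved from this SE, the share of the change that the model kept was either 45.1% or 54.9%. The difference of 0.50 would then correspond to either 1.10 or 0.91 before shrinkage. For a gene with a smaller SE the solutions lie farther apart, as for Ikbke in the same comparison. Its solutions were 0.70 at a kept share of 78.5% and 2.55 at a kept share of 21.5%. The farther value holds only if the SE before shrinkage was large, and that SE is not in the values used. Which solution applies was not tested, so that 2.55 is no estimate of the change of Ikbke. Nfkbid (plus strand of chromosome 7, 30421732 to 30428746) had levels of 434.1, 514.2 and 398.0 in GFP, of 443.5, 523.8 and 404.5 in GFP-TTP, and of 364.6, 429.2 and 332.5 in GFP-TTP-AA. It was the 1 IκB protein with its lowest level in GFP-TTP-AA, at -0.28 (SE 0.17, interval -0.61 to 0.04) against GFP-TTP and -0.26 (SE 0.17, -0.58 to 0.07) against GFP. Between GFP-TTP and GFP its log2 fold change was 0.03 (SE 0.17, -0.30 to 0.35).

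The IKK complex itself had small differences. Chuk (minus strand of chromosome 19, 44073335 to 44107480) ranged from 264.0 to 325.5 in GFP, from 232.4 to 285.8 in GFP-TTP and from 240.1 to 296.3 in GFP-TTP-AA. Its log2 fold change was -0.18 (SE 0.18, interval -0.54 to 0.18) in GFP-TTP against GFP, -0.13 (SE 0.18) in GFP-TTP-AA against GFP and 0.05 (SE 0.18, -0.31 to 0.41) between the 2 forms of TTP. Chromosome 19 as a whole had a median of 0.18 in GFP-TTP against GFP, over 357 genes, and Chuk lay -0.36 from that median. Ikbkb (minus strand of chromosome 8, 22659212 to 22706589) had levels of 277.9, 269.5 and 279.0 in GFP, of 252.3, 243.9 and 251.9 in GFP-TTP, and of 300.7, 289.7 and 300.2 in GFP-TTP-AA. Its replicate numbers were nearly equal, so that the fitted values of the 3 conditions did not overlap although the differences were small. They were -0.14 (SE 0.17) in GFP-TTP against GFP, 0.11 (SE 0.17) in GFP-TTP-AA against GFP and 0.25 (SE 0.17, interval -0.09 to 0.59) in GFP-TTP-AA against GFP-TTP. Ikbkg (plus strand of chromosome X, 74393290 to 74453854) had the smallest span over conditions of the 10 genes, with levels of 288.7, 289.0 and 272.3 in GFP, GFP-TTP and GFP-TTP-AA. Its intervals ran from -0.33 to 0.34 in GFP-TTP against GFP and from -0.42 to 0.25 in GFP-TTP-AA against either of the others. Of its coding sequence 39 nt overlap an exon of G6pdx on the opposite strand.

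The IKK-related kinases had the differences that came closest to the threshold in the comparisons with GFP. Ikbke (minus strand of chromosome 1, 131254343 to 131279606), an inducible kinase of innate immunity, had levels of 156.1, 121.2 and 152.3 in GFP, of 154.5, 119.6 and 149.9 in GFP-TTP, and of 226.2, 174.4 and 219.5 in GFP-TTP-AA. All values of GFP-TTP-AA were above all values of the other conditions, and GFP and GFP-TTP overlapped. GFP-TTP-AA was above GFP by 0.53 (SE 0.21, interval 0.13 to 0.93, 1.44-fold; adjusted p = 0.148, same test) and above GFP-TTP by 0.55 (SE 0.21, 0.14 to 0.95, 1.46-fold; adjusted p = 0.0668, same test). GFP-TTP was at -0.02 (SE 0.21, -0.43 to 0.39) from GFP. Ikbke had the lowest level of the 10 genes, and 60 nt of its coding sequence overlap exons of Gm28913 or Gm28914 on the opposite strand.

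Tbk1 (minus strand of chromosome 10, 121546455 to 121586787) had levels of 677.1, 699.8 and 949.0 in GFP, of 523.3, 539.1 and 729.3 in GFP-TTP, and of 653.6, 671.1 and 910.9 in GFP-TTP-AA. GFP-TTP was the lowest condition, and the conditions overlapped because replicate 3 was higher than the others. GFP-TTP was at -0.38 (SE 0.14, interval -0.65 to -0.10, 0.77-fold) from GFP, with an adjusted p of 0.174, and GFP-TTP-AA was 0.32 (SE 0.14, 0.05 to 0.59) above GFP-TTP, with an adjusted p of 0.136 (same test). GFP-TTP-AA and GFP differed by -0.06 (SE 0.14, -0.33 to 0.22). The genes of chromosome 10 moved in the same directions, with medians of -0.12 over 476 genes in GFP-TTP against GFP and of 0.18 over 489 genes in GFP-TTP-AA against GFP-TTP. Relative to these medians Tbk1 stood at -0.26 and 0.14. Why chromosomes differed was not tested. Among genes whose fitted values averaged at least 100, Pmp22, Mnd1 and Kcmf1 had fitted values over the 9 libraries most like those of Tbk1. The Euclidean distances between centred log2 values were 0.158, 0.169 and 0.181. Such values hold only the condition and replicate terms, and the replicate span of Tbk1 (0.48) was larger than its condition span (0.38).

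**Figure D3:**
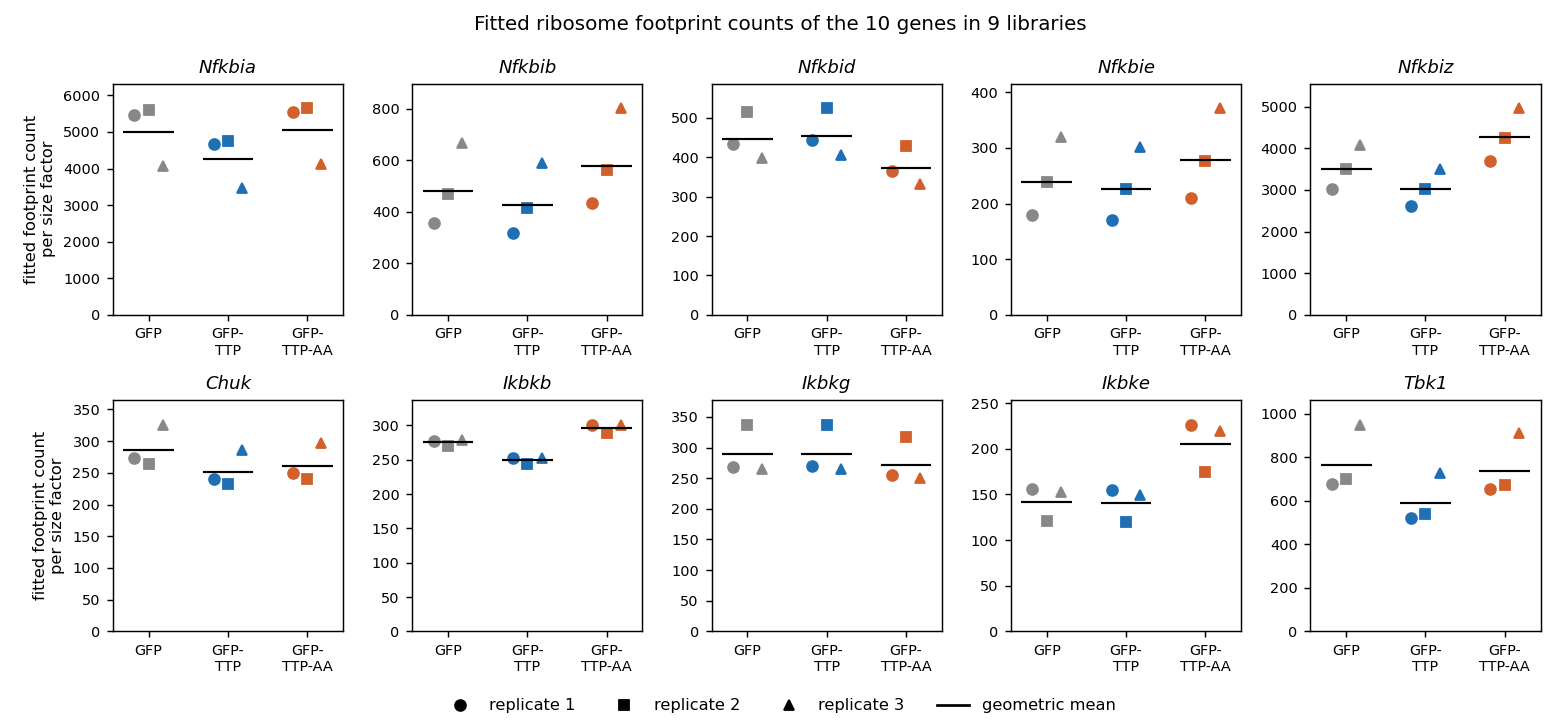
Fitted footprint count divided by the size factor (linear axes from 0) of the 10 genes in replicates 1 (circles), 2 (squares) and 3 (triangles) of GFP (grey), GFP-TTP (blue) and GFP-TTP-AA (orange), with the geometric mean of a condition as a line. The order of the replicate numbers is the same in each condition, since the values are fitted, and Ikbke and Ikbkb are the genes whose 3 values in GFP-TTP-AA lie above both other conditions.

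Several of these genes differed more between replicate numbers than between conditions in the fitted values, in which the changes between conditions are shrunken. Whether the replicate term was shrunken as well was not tested. The highest and the lowest replicate number differed by 0.89 (log2) for Nfkbib and by 0.83 for Nfkbie, while their highest and lowest conditions differed by 0.44 and 0.29. The replicate span was larger than the condition span for 7 of the 10 genes (70.0%), and for 53.4% of the 10202 genes that passed the filter. The exceptions were Ikbke, Nfkbiz and Ikbkb. This count depends on the shrinkage, which differs between genes, and it was not made with unshrunken values. Over the 10 genes the median replicate span was 0.40 and the median condition span 0.29, against 0.29 and 0.27 over all genes. The replicate number stands for the library date in the authors' model, and the dates are not given in the sources used here.

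**Figure D4:**
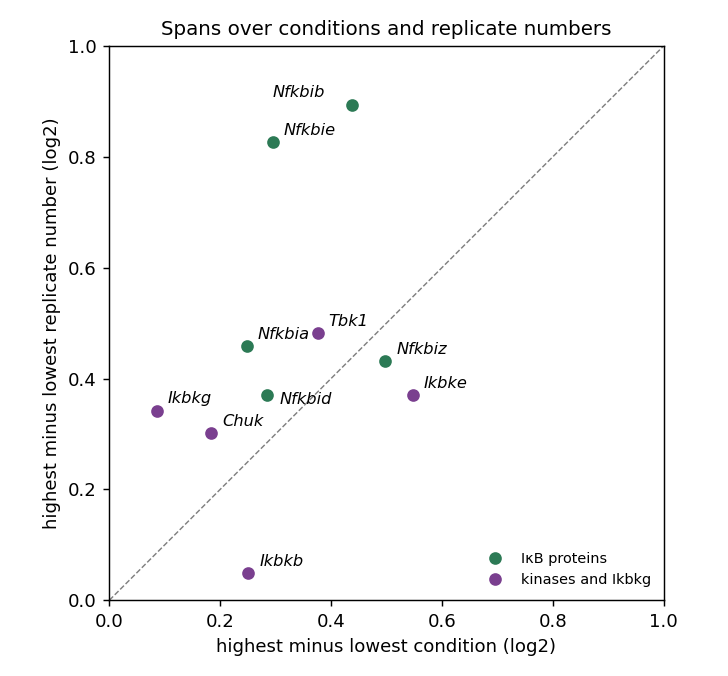
Difference on the log2 scale between the highest and the lowest replicate number (vertical) and between the highest and the lowest condition (horizontal) for each gene, with a dashed line where both are equal. Nfkbib (0.89 against 0.44) and Nfkbie (0.83 against 0.29) lie farthest above the line, and Ikbke, Nfkbiz and Ikbkb below it.

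Construct and transduced cell population cannot be told apart in any of the 3 comparisons. In GFP-TTP against GFP, which sets cells with wild-type TTP against control cells, 8 of the 10 genes had a log2 fold change below 0. Of all genes tested, 50.7% were above 0. The median was -0.16, with a range from -0.38 (Tbk1) to 0.03 (Nfkbid), and the median of all 9939 genes tested was 0.00. None of the 10 genes passed an adjusted p of 0.05, where 209 of all genes tested (2.10%) did. At an unadjusted p under 0.05 there was 1 of the 10, Tbk1, and 11.3% of all genes. The fitted values of the conditions did not overlap for 1 of the 10, Ikbkb, and for 25.5% of all genes.

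In GFP-TTP-AA against GFP, which sets cells with the mutant against the same control cells, 6 of the 10 genes were above 0. Of all genes tested, 50.9% were above 0. The median of the 10 genes was 0.06, with a range from -0.26 (Nfkbid) to 0.53 (Ikbke). None passed the adjusted threshold, and 308 of 10202 genes (3.02%) did. At an unadjusted p under 0.05 there was 1 of the 10, Ikbke, and 14.2% of all genes. The fitted values did not overlap for 2 of the 10, Ikbke and Ikbkb, and for 27.0% of all genes.

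In GFP-TTP-AA against GFP-TTP, which compares the 2 forms of TTP, 8 of the 10 genes were above 0 and Nfkbid and Ikbkg below it. The median of the 10 was 0.27, of the 5 IκB proteins 0.30 and of the kinases and Ikbkg 0.25. All genes tested had a median of 0.00, and 50.5% were above 0. None of the 10 genes passed the adjusted threshold, which 1047 of 10202 genes (10.3%) did. At an unadjusted p under 0.05 there were 4 of the 10 (Nfkbib, Nfkbiz, Ikbke and Tbk1, all higher), against 22.2% of all genes in either direction, or 11.3% when only higher ones are counted. Relative to chromosome medians, 2 of the 10 and 2099 of the 10202 genes were under it. With a reference of 4 residual degrees of freedom, 0 of the 10 and 1069 of all genes were. A call in this comparison needed a log2 fold change of 2.80 SE, and the largest among the 10 was 2.66 SE, for Ikbke. The fitted values did not overlap for 3 of the 10 (Nfkbiz, Ikbkb and Ikbke) and for 34.4% of all genes. GFP-TTP is part of this comparison and of the one with GFP, so that lower levels in GFP-TTP appear in both.

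**Figure D5:**
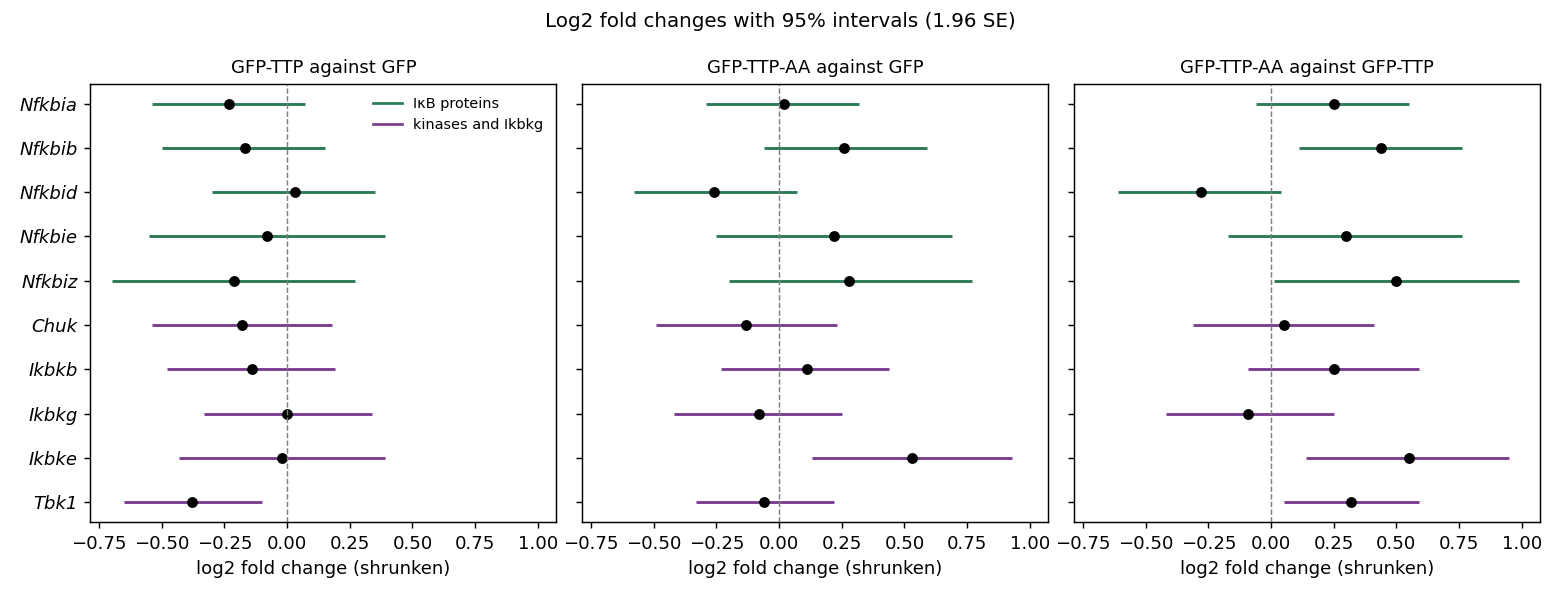
Shrunken log2 fold changes (points) with intervals of 1.96 SE (lines) of the 5 IκB proteins (green) and of the kinases and Ikbkg (purple) in the 3 comparisons. Intervals that leave out 0 are those of Tbk1 in GFP-TTP against GFP, of Ikbke in GFP-TTP-AA against GFP, and of Nfkbib, Nfkbiz, Ikbke and Tbk1 in GFP-TTP-AA against GFP-TTP, and none passed the adjusted threshold.

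Some genes around the IκB proteins and their kinases passed the test, mainly between the 2 forms of TTP. In that comparison 10.3% of all genes passed it, and the lists were not tested against this share. With the reference of 4 residual degrees of freedom, 0 of all genes passed in each comparison. All 5 NF-κB subunits had values above 0 in GFP-TTP-AA against GFP, from 0.17 to 0.55, and none passed the threshold there. All 5 were also above 0 in GFP-TTP-AA against GFP-TTP, from 0.19 to 0.49, where 50.5% of all genes were. In that comparison 1 of them rose past the threshold, Nfkb1, which encodes p105 and p50, at 0.45 (SE 0.15, adjusted p = 0.0304, same test). The other IκB-like genes changed in opposite directions. Bcl3, a nuclear IκB protein that binds p50 and p52, rose by 0.75 (SE 0.24, adjusted p = 0.0256, same test), and Nfkbil1 fell by 0.48 (SE 0.17, adjusted p = 0.0478, same test). Of the 18 receptors, adaptors and kinases upstream of IKK, 2 rose and 0 fell. They were Ly96, the MD-2 partner of TLR4 in LPS recognition, at 0.56 (SE 0.19, adjusted p = 0.0336, same test) and the adaptor Traf2 at 0.51 (SE 0.16, adjusted p = 0.0206, same test).

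In GFP-TTP-AA against GFP-TTP, where 10.3% of all genes passed, 1 of the 9 partner proteins of IKK and TBK1 fell and 0 rose. It was the chaperone Hsp90ab1, at -0.55 (SE 0.12, adjusted p = 0.000289, same test). Footprints of Hsp90ab1 that also match its close paralog Hsp90aa1 may have been shared or left out. Of the 7 genes of linear ubiquitin and IKK deubiquitination that were tested, 1 rose, Tnip1, the partner of A20, by 0.62 (SE 0.18, adjusted p = 0.0115, same test). Tnip1 also rose in GFP-TTP-AA against GFP, by 0.76 (SE 0.18, adjusted p = 0.00302, same test). Among 15 NF-κB target genes tested, 3 rose and 1 fell in GFP-TTP-AA against GFP-TTP. Traf1 rose by 1.23 (SE 0.23, adjusted p = 6.9e-06, same test), with levels of 133.7 and 314.0, and Birc3 (cIAP2) by 0.80 (SE 0.21, adjusted p = 0.0024, same test). The others, named after their values were seen, were Gadd45b, which rose, and Ccl3, which fell. Against GFP, where 3.02% of all genes passed the threshold, 2 of the 15 rose with GFP-TTP-AA, Traf1 and Sod2, the mitochondrial superoxide dismutase, and 0 fell. None of the 6 genes of IκB ubiquitination and none of the 5 of the IRF3 and IRF7 branch passed the threshold in GFP-TTP-AA against either of the others. In GFP-TTP against GFP no gene of any of these lists passed it, where 2.10% of all genes did.

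The same lists were also counted at an unadjusted p under 0.05. In GFP-TTP-AA against GFP, where 14.2% of all genes were under it, these were 3 of 5 NF-κB subunits, 1 of 2 other IκB-like genes, 4 of 9 partner proteins, 7 of 18 genes upstream of IKK, 2 of 7 genes of linear ubiquitin and IKK deubiquitination, 6 of 15 NF-κB target genes, 0 of 6 genes of IκB ubiquitination and 1 of 5 of the IRF3 and IRF7 branch. In GFP-TTP-AA against GFP-TTP, where 22.2% of all genes were under it, the counts in the same order were 4, 2, 3, 5, 1, 7, 0 and 0. In GFP-TTP against GFP, where 11.3% were under it, there was 1 each among the other IκB-like genes, the genes of IκB ubiquitination and the NF-κB target genes, and 0 in each of the other lists.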

How the data were processed

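RiboSeq libraries of 3 conditions with 3 replicates each were grouped by the sample labels. The submitters' processing notes name Trim Galore, TopHat2 2.0.12, HTSeq and DESeq2 1.6.3 with GRCm38 (mm10), and the strand setting of the counting is not given in the sources used here. The authors kept up to 2 alignments per read, and whether footprints of near-identical copies were shared or left out depends on the counting.

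The deposited table of normalized counts holds a signal per gene and library, which is the size factor times the mean fitted by the authors with DESeq2. This was checked on the values. After gene-wise condition and replicate terms and 1 constant per library, at most 7.1e-15 of the log2 values was left, and 0 genes were listed at 0. The deposited comparison tables hold, on the log2 scale, the authors' fold changes with their SE, and the authors' test statistics, p-values and adjusted p-values. Only the SE was used from them, and the authors' mean over all libraries was read to check the scale.

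Size factors were the median ratios of the fitted values over genes whose fitted values averaged at least 10 (0.415 to 2.12). Log2 fold changes were differences of mean log2 levels, without a pseudocount. Each was divided by its SE, compared with the normal distribution (two-sided Wald test) and adjusted by Benjamini-Hochberg over all such genes with an SE, with a threshold of 0.05. Python 3.11.15 with numpy 2.4.6, scipy 1.17.1 and pandas 2.3.3 was used, and the size factors and calls were tested on simulated data. The changes were drawn there with a normal error of the same SE, so that shrinkage and the error of the SE itself were not tested. The SE of a shrunken change is largest where the model keeps as much as it loses. The kept share was solved from each SE, which gives a lower and a higher solution. Where nothing says that replicates were separate cultures, the errors may be technical.

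The 10 genes, the pathway lists and the markers were chosen with earlier results of these data known. Beside the 10 genes and Zfp36, at most 2 genes per list, those with the largest change past the threshold, were named with values. With no member past the threshold, the 3 genes most like the member with the largest change per SE were also named. Observed counts, and therefore depth per library, are not in the values used, and the study's RNASeq and iCLIP data are not used here.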

Additional observations from a re-analysis of the deposited data

How the results depend on the processing

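No paired analysis was possible because the values are fitted, with the replicate term already in them and without spread between replicates, and for the same reason no replicate could be left out. None of the 10 genes passed the threshold in any comparison without the filter, with a fitted mean of at least 50, with adjustment over the 3 comparisons together, with a reference of 4 residual degrees of freedom, relative to chromosome medians, or with libraries rescaled to equal totals. The smallest adjusted p among the 10 in GFP-TTP-AA against GFP-TTP, that of Ikbke in each setting, lay between 0.0645 and 0.485. The reference with 4 residual degrees of freedom left 0 of all genes in each comparison, where 363, 517 and 1069 genes had an unadjusted p under 0.05. None of the 10 genes was under it with this reference. Relative to chromosome medians, 0, 1 and 2 of the 10 genes were under it, and 959, 1319 and 2099 of all genes. Counts over all genes stayed within 1.5 times under the other settings. Relative to chromosome medians, the median of the 10 genes in GFP-TTP-AA against GFP went from 0.062 to -0.001, Nfkbia went to -0.11 in that comparison, and Ikbkg went to -0.03 in GFP-TTP against GFP. Ikbkg was at -0.01 there with equal totals. The other 28 and 29 values of the 30 kept their sign in these settings, as did all 30 with pseudocounts of 1 and 10. Of the order per kilobase in GFP, 5 of 10 places were the same by the length of the merged exons, namely the first 5. By that length Ikbkb was last in each condition, and Ikbke was in place 9. The part of depth in the SE and in the shrinkage of each gene was not tested.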
